A study of Mus musculus with 2 samples.

Results

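The 10 genes described here encode lineage transcription factors of gut T cells: Tbx21, Eomes, Gata3, Bcl6, Prdm1, Tcf7, Rora, Maf, Ahr and Ikzf2. They were taken by symbol from the deposited gene list, which held each of the 10 members once among 55357 genes, and no measured value was used to choose them. Their unique molecular identifiers (UMIs, the tags that count captured transcripts) were summed in cells sorted in silico by UMIs of the receptor gene Trdc and the coreceptor genes Cd8b1, Cd8a and Cd4.

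A T cell's identity is held by transcription factors that switch on one effector programme and hold others down. T-bet, encoded by Tbx21, and Eomes direct interferon gamma production and killing, GATA3 directs type 2 responses, RORA acts in type 17 cells, and BCL6 and BLIMP1, encoded by Prdm1, repress each other. TCF1, encoded by Tcf7, maintains naive and self-renewing cells, c-MAF drives IL-10 and other helper cytokines, AHR senses ligands from diet and microbes and keeps lymphocytes in the gut epithelium, and Helios, encoded by Ikzf2, is known from regulatory T cells and from self-reactive or innate-like T cells.

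The data were droplet single-cell RNA profiles of T cells from mouse ileum, made with the 10x Genomics 3′ kit, version 3, as 1 Control and 1 SAP library. Per the series text, dendritic cells were loaded with phages of healthy or SAP mice and cultured with gut T cells of GF mice (in common use, germ-free), and FucoID, an enzymatic tag placed on T cells that touch a dendritic cell, was used to separate those cells from bystanders. The labels say only Control and SAP. They do not state the strain, age, number or pooling of the animals, what SAP stands for, or whether the sequenced cells were the tagged ones, so what both groups share beyond tissue and cell type is known only from the series text. With 1 library per group there was no replicate and no test: intervals are exact 95% intervals that cover counting error only, and differences between the libraries cannot be told apart from differences between any 2 preparations.

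The members lie on 8 autosomes. On GRCm38 (GENCODE M21), Ikzf2 (ENSMUSG00000025997) spans chromosome 1, 69531214 to 69687245, on the minus strand, and Rora (ENSMUSG00000032238) spans chromosome 9, 68653786 to 69388246, on the plus strand, the longest of the 10 at 734461 bases. Maf (ENSMUSG00000055435) spans chromosome 8, 115682942 to 115707794, and Tcf7 (ENSMUSG00000000782) spans chromosome 11, 52252371 to 52283014, both on the minus strand. Tbx21 (ENSMUSG00000001444) lies on chromosome 11, 97098071 to 97115331, and Prdm1 (ENSMUSG00000038151) on chromosome 10, 44437177 to 44528501, also on the minus strand. The 250 bases before the RefSeq start of Rora, Prdm1 and Tbx21 (GRCm38.p6) are shown because AHR is itself a member and the AHR core motif GCGTG, in capitals as the reverse complement CACGC, occurs once before Rora, at 2 places before Prdm1 and nowhere before Tbx21. They cover chr9:68653536-68653785 on the plus strand, chr10:44458749-44458998 on the minus strand, which lies inside the GENCODE span of Prdm1, and chr11:97115332-97115581 on the minus strand.
Rora: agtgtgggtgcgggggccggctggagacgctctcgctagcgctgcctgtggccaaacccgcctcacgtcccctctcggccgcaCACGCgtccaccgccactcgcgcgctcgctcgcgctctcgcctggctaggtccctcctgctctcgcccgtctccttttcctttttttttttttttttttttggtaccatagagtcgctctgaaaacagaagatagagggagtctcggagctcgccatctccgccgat
Prdm1: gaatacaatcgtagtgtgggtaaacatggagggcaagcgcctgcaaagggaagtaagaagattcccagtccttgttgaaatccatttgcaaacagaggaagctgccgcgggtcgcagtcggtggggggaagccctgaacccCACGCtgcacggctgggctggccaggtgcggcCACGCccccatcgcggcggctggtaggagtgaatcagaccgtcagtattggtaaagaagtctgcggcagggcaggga
Tbx21: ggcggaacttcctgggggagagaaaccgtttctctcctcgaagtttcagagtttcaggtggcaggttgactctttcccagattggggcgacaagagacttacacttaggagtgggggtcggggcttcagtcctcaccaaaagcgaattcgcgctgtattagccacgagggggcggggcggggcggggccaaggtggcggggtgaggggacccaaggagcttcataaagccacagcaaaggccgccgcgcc
Of the 10 members 7 had a RefSeq promoter entry, with 9 entries in all, and Maf, Ahr and Ikzf2 are named only. Over 32851 entries, the 250 bases before each start were searched, and GCGTG was found on either strand in 28.2%. Other motifs were searched on both strands in the same way. The motif of GATA-binding proteins, AGATAA, was held by 9.99% of entries. That of RORA, AGGTCA, was held by 14.0%. That of TCF1, TCAAAG, was held by 13.8% of the entries. That of the T-box family, GGTGTGA, was held by 3.33%. AGGTCA occurred in an entry of Tcf7, TCAAAG in an entry of Bcl6, and the GATA and T-box motifs in none of the members' entries. A match is a description of the letters and not a binding site.

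The 2 libraries were close in size, with 5737 barcodes and 19142384 UMIs in Control and 5203 barcodes and 19144320 UMIs in SAP. After filters on UMIs, genes, mitochondrial share and doublets, 21 Control and 48 SAP barcodes held 3 or more UMIs of Folr1, a folate receptor gene. They stood apart, with median depths of 24601 and 30678 UMIs and T cell receptor and CD3 genes at 150 and 126 UMIs per 1000000 (CPM), against 8273 and 8206 CPM in the other barcodes. They were left out together with 5 Control and 1 SAP barcodes rich in immunoglobulin UMIs, which left 5382 and 4777 cells. The libraries shared 6 barcodes as deposited and 5 among retained cells. Leaving these 5 out kept all 147 member ratios within their intervals.

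Each gate holds cells with at least 1 UMI of its gene and none of the competing genes. The Trdc gate (Trdc present, Cd8b1 and Cd4 absent) held 2226 Control and 2020 SAP cells, of which 1565 and 1491 also had a Cd8a UMI. The Cd8b1 gate (CD8 alpha-beta cells) held 544 and 540, the Cd8a-only gate (Cd8a without Cd8b1, Trdc or Cd4) 1462 and 1210, and the Cd4 gate 184 and 167 cells. The 4 gates together held 4416 and 3937 cells. None of the 4 genes was seen in 834 and 714 cells, which were shallower, with medians of 2228 and 1866.5 UMIs against 3114.5 to 3610 in the gates. Other combinations made up 132 and 126 cells.

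T cell markers were seen in every gate, 17 or 18 of 20, at a summed 7160 to 10864 CPM. The list includes the 4 gate genes, so the count and the sum were partly set by the gate rule. All listed markers that no gate uses were seen in every gate, with Cd3e at 793 to 1837 CPM. The gates are not pure receptor classes: the Trdc gate carried 920 and 912 CPM of the alpha-beta constant gene Trbc2 against 1536 and 1433 CPM in the Cd8b1 gate, and the Cd8a-only gate carried 196 and 205 CPM of Trgc1, a gamma chain gene, against 651 and 671 CPM in the Trdc gate. The dendritic markers Flt3 and Clec9a had no UMI in any gate. The 11 macrophage and monocyte markers summed to 16.1 to 21.4 CPM in the gates, with UMIs of Cd68 in all of them and none of C1qa, C1qb, C1qc or Adgre1. Summed NK and innate lymphoid markers (12 genes, Eomes and Gata3 among them) were 2320 to 2840 CPM in the Trdc and Cd8a-only gates against 368 to 652 CPM in the Cd8b1 and Cd4 gates. This came largely from the signalling adaptor gene Fcer1g, at 1405 to 1614 CPM against 1.58 to 108 CPM. The 13 epithelial markers found summed to 173 to 219 CPM in the Trdc and Cd8a-only gates, 50.8 to 58.2 CPM in the Cd8b1 gate and 14.6 to 15.8 CPM in the Cd4 gate. Of these 13, 12 were seen in each Cd8a-only sum, all but Alpi, 8 and 12 in the Trdc gate, 7 in each Cd8b1 sum and 3 in each Cd4 sum. The 14 dendritic markers, of which Irf8 is one, summed to 141 to 157 CPM in the Trdc and Cd8a-only gates and 39.5 to 71.7 CPM in the Cd8b1 and Cd4 gates. In the first pair most came from Itgax, at 67.3 to 69.0 CPM, and Irf8, at 42.8 to 59.8 CPM. The part of these signals in the contrasts between gates was not tested.

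Ikzf2 was highest in the Trdc and Cd8a-only gates. Its level was 1384 CPM in Control and 1399 CPM in SAP in the Trdc gate, and 1458 and 1408 CPM in the Cd8a-only gate. It was 437 and 353 CPM in the Cd8b1 gate and 269 and 180 CPM in the Cd4 gate. The 2 libraries gave the same order, with the intervals of the 2 high gates overlapping in SAP and every other step apart.

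The share of cells with an Ikzf2 UMI was compared after each cell was thinned to 1000 UMIs. It was 64.6% (1368 of 2118 cells; 95% interval 62.5 to 66.6) in Control and 64.9% (1235 of 1904; 62.7 to 67.0) in SAP in the Trdc gate. It was 64.3% and 64.8% in the Cd8a-only gate, 28.8% and 23.5% in the Cd8b1 gate and 19.9% and 11.6% in the Cd4 gate. Before thinning the shares were 88.0% and 90.1% in the Trdc gate, 80.6% and 80.5% in the Cd8a-only gate, 47.8% and 45.4% in the Cd8b1 gate and 28.8% and 24.0% in the Cd4 gate. Cells with 3 or more Ikzf2 UMIs after thinning made up 20.5% and 19.7% of the Trdc gate and 22.8% and 19.3% of the Cd8a-only gate, against 3.65% and 2.50% of the Cd8b1 gate. The Ikzf2 transcript was therefore seen in more cells and at more UMIs per cell in the high gates.

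The Folr1 barcodes, almost without T cell receptor transcripts, were set beside these shares. After thinning, 0 of 20 Control and 0 of 47 SAP barcodes had a UMI of any member other than Prdm1, which had 1 in each library, and the exact upper limits for 0 were 16.8% and 7.55%. They were far deeper than gate cells, with the median depths given above, so these values give no bound on free RNA in T cells, and no background level was established for members with low shares. Before thinning, a Bcl6 UMI was seen in 23.8% and 39.6% of them, an Ahr UMI in 19.05% and 27.1%, a Prdm1 UMI in 14.3% and 18.8% and an Ikzf2 UMI in 23.8% and 16.7%. For Rora, Maf and Tcf7 the unthinned shares in the Folr1 barcodes were 9.52% and 4.17%, 4.76% and 2.08%, and 9.52% and 2.08%. The highest level among members there was 25.4 CPM, for Bcl6 in SAP.

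Ikzf2 is a long gene with other annotated genes inside it. Gm28112, a same-strand gene within Ikzf2, was counted at 85.2 and 88.5 CPM in the Trdc gate, 79.6 and 85.3 CPM in the Cd8a-only gate, 24.0 and 28.9 CPM in the Cd8b1 gate and 8.78 and 6.32 CPM in the Cd4 gate. Its level thus ran in the same direction as that of Ikzf2. Whether reads in introns were counted is not given in the sources used here, so reads of the 2 genes may not be fully told apart. Opposite Ahr, the antisense gene Gm48236 overlapped its exons and stood at 29.3 and 33.2 CPM in the Cd4 gate.

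Maf marked the Cd4 gate. Its level there was 862 CPM (794 to 934) in Control and 794 CPM (726 to 867) in SAP. In the other gates it was 25.4 and 25.7 CPM (Trdc), 21.1 and 19.1 CPM (Cd8a-only) and 12.3 and 15.7 CPM (Cd8b1), where neighbours in the order overlapped. A Maf UMI was seen at equal depth in 50% (88 of 176) and 46.5% (72 of 155) of Cd4 gate cells and in 0.385% of Cd8b1 gate cells in each library. Before thinning these were 69.0% and 68.9% against 2.02% and 3.52%. The ungated cells had 251 and 276 CPM of Maf, between the Cd4 gate and the rest.

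Rora had its highest level in the Cd4 gate, at 550 and 523 CPM, then in the Cd8b1 gate, at 251 and 249 CPM. It was 118 and 99.3 CPM in the Cd8a-only gate and 82.1 and 83.3 CPM in the Trdc gate, and these last levels were apart in Control but overlapped in SAP. The share with a Rora UMI at equal depth ran in the same order, from 35.2% and 31.0% in the Cd4 gate through 19.2% and 17.3% (Cd8b1) and 9.01% and 7.54% (Cd8a-only) to 6.0% and 6.72% (Trdc). Unthinned shares were 61.4% and 64.7% in the Cd4 gate and 16.9% and 18.2% in the Trdc gate. Rora was thus lowest in the Trdc and Cd8a-only gates, in which Ikzf2 was highest, but between these gates both genes stood higher in the Cd8a-only gate in both libraries, with overlapping intervals in SAP.

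Tcf7 was at 206 and 137 CPM in the Cd4 gate, 78.6 and 80.2 CPM in the Cd8b1 gate, 52.8 and 50.1 CPM in the Trdc gate and 33.3 and 28.6 CPM in the Cd8a-only gate, with every step apart in both libraries. The Trdc gate was not uniform: cells with a Cd8a UMI had 34.3 and 32.9 CPM of Tcf7 and cells without one 103 and 108 CPM. Its share at equal depth was 3.10% and 2.43% in the first and 7.62% and 8.15% in the second. Ahr showed the same split, at 65.6 and 88.6 CPM with Cd8a and 130 and 146 CPM without.

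**Figure D1:**
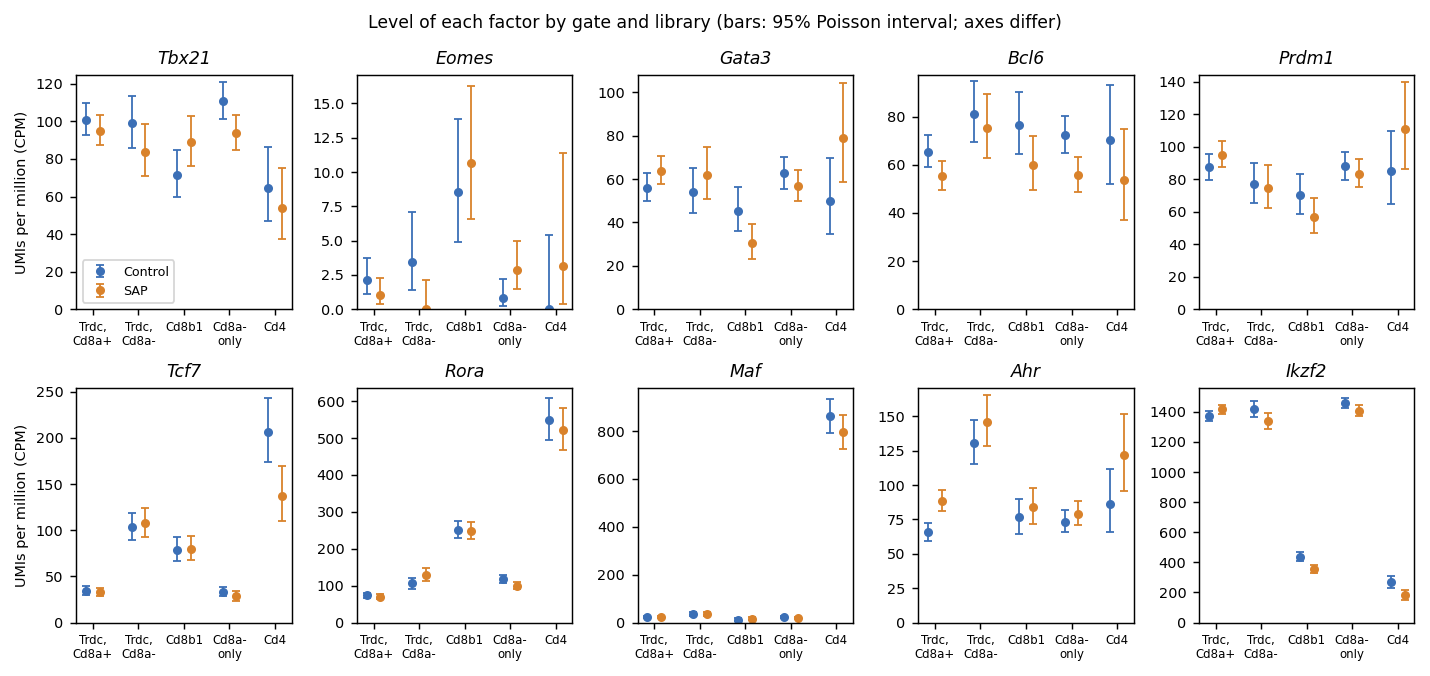
Level of each member in CPM (vertical axes, which differ between panels and start at 0) in the Trdc gate split by Cd8a, and the Cd8b1, Cd8a-only and Cd4 gates, with Control in blue and SAP in orange and bars for 95% Poisson intervals. Maf and Rora are highest in the Cd4 gate in both libraries, and Ikzf2 is highest in the Trdc and Cd8a-only gates (1384 to 1458 CPM over each whole gate).

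**Figure D2:**
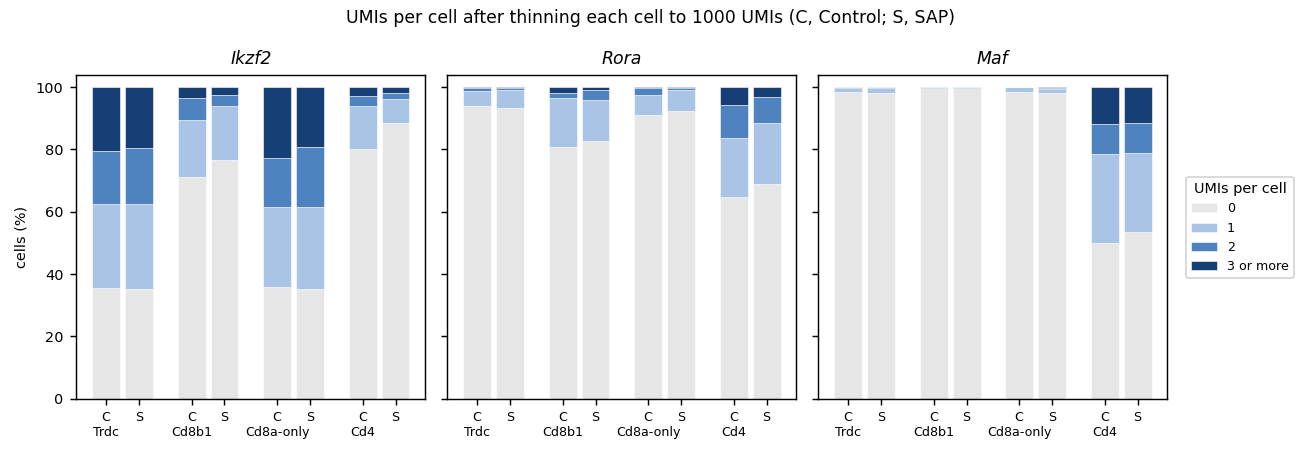
Percent of cells (vertical axis) with 0, 1, 2 or 3 or more UMIs of Ikzf2, Rora and Maf after each cell was thinned to 1000 UMIs, by gate, for Control (C) and SAP (S). Cells with 3 or more Ikzf2 UMIs are a visible band in the Trdc and Cd8a-only gates, and cells with 3 or more Maf UMIs, 11.9% and 11.6%, in the Cd4 gate.

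Tbx21, Gata3, Prdm1, Bcl6 and Ahr were called in none of the contrasts run between the 4 gates, and Eomes was too sparse to enter them. The Cd4 gate was set against the Cd8b1 gate only, not against the Trdc or Cd8a-only gate. Tbx21 was at 100 and 92.4 CPM in the Trdc gate, 111 and 93.6 CPM in the Cd8a-only gate, 71.6 and 88.8 CPM in the Cd8b1 gate and 64.4 and 53.7 CPM in the Cd4 gate. Its Cd8b1 level lay below the Trdc level in Control and overlapped it in SAP. Its Cd4 level was the lowest in both libraries, and no ratio to the Trdc or Cd8a-only gate was computed. Eomes, the second T-box factor, was sparse, with 19 and 6 UMIs in the Trdc gate, 16 and 21 in the Cd8b1 gate, 4 and 12 in the Cd8a-only gate, and 0 and 2 in the Cd4 gate. Its highest level was 8.55 and 10.7 CPM, in the Cd8b1 gate, and its share at equal depth was under 1% in every gate. It never reached the 20 CPM needed for a contrast, and its Trdc over Cd8b1 ratios of 0.293 (0.143 to 0.608) and 0.0750 (0.0248 to 0.192) rest on these few UMIs.

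Gata3 was at 55.6 and 63.4 CPM in the Trdc gate, 62.6 and 56.7 CPM in the Cd8a-only gate, 45.4 and 30.5 CPM in the Cd8b1 gate and 49.8 and 79.0 CPM in the Cd4 gate. Prdm1 was at 84.5 and 90.3, 88.0 and 83.4, 70.0 and 56.9, and 84.9 and 111 CPM in the same gates. For both genes neighbours in the order of the gates overlapped in Control, and the Cd8b1 gate was lowest and apart in SAP. Intervals of ratios can exclude 1 where those of levels overlap. In Control the Cd8a-only over Cd8b1 ratio was 1.38 (1.08 to 1.77) for Gata3 and 1.26 (1.03 to 1.54) for Prdm1. Bcl6 ranged from 53.7 to 76.4 CPM and Ahr from 73.4 to 122 CPM over the 4 gates and both libraries. For each of these 2 genes, neighbours in the order of the gates overlapped. In SAP the Ahr ratio was 1.29 (1.13 to 1.47) in Trdc over Cd8a-only and 1.22 (1.03 to 1.45) in Trdc over Cd8b1. It was 1.45 (1.09 to 1.91) in Cd4 over Cd8b1, and in Control these Ahr intervals included 1.

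Ratios between gates put these levels beside all other genes. A gene was called when its CPM ratio was at least 1.5-fold on the same side in both libraries and both intervals excluded 1, among genes with at least 20 CPM in a gate in both libraries and 50 UMIs in all. In Trdc over Cd8b1, 9 of the 10 members were eligible. Ikzf2 was higher at 3.17-fold (2.95 to 3.40) in Control and 3.96-fold (3.67 to 4.29) in SAP, and Maf was higher at 2.07-fold (1.34 to 3.34) and 1.63-fold (1.11 to 2.47). Rora was lower, at ratios of 0.328 and 0.334. Thus 2 were called higher and 1 lower, where 6.69% and 1.98% of the 5365 eligible genes were. Tcf7 had ratios of 0.672 and 0.624 and missed the 1.5-fold limit in Control, which it passed with median-of-ratios scaling, with gates of 2 UMIs or more and with the Folr1 barcodes kept. Maf was under 20 CPM in the Cd8b1 gate and was eligible through the Trdc gate alone, so its call is a description only. The Maf call rests on low levels, and with gates of 2 UMIs or more only 1 member was called higher.

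In Cd8a-only over Cd8b1, 8 members were eligible. Ikzf2 was higher at 3.33-fold and 3.99-fold, where 7.38% of 5406 genes were called higher. Rora, at ratios of 0.469 and 0.398, and Tcf7, at 0.424 and 0.357, were lower, where 1.94% of genes were. In Trdc over Cd8a-only, few genes differed, 0.259% higher and 0.314% lower of 5414. Tcf7 was the 1 member called of 9 eligible, higher at 1.59-fold and 1.75-fold.

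In Cd4 over Cd8b1, 3 of 9 eligible members were higher, where 5.22% of 5156 genes were. They were Maf, at 70.1-fold (46.3 to 112) and 50.5-fold (35.1 to 75.1), Tcf7, at 2.63-fold and 1.71-fold, and Rora, at 2.20-fold and 2.10-fold. Maf was under 20 CPM in the Cd8b1 gate and was eligible through the Cd4 gate alone. Ikzf2 was lower, at 0.616 and 0.510, where 3.28% of genes were lower. With gates of 2 UMIs or more, neither Ikzf2 nor Tcf7 was called.

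Within the Trdc gate, cells without a Cd8a UMI were set against cells with one, a contrast added after the levels were seen. Tcf7 (3.01-fold and 3.27-fold), Ahr (1.99-fold and 1.65-fold) and Maf (1.52-fold and 1.51-fold, just past the limit) were higher, 3 of 9 eligible members, where 0.998% of 5410 genes were. None was lower, where 2.27% of genes were. The Maf call was lost under 5 alternatives, including without the barcodes found in both libraries. Rora had ratios of 1.44 and 1.85 and passed 1.5-fold in SAP only. Ikzf2 differed little, at 1.03 and 0.945.

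**Figure D3:**
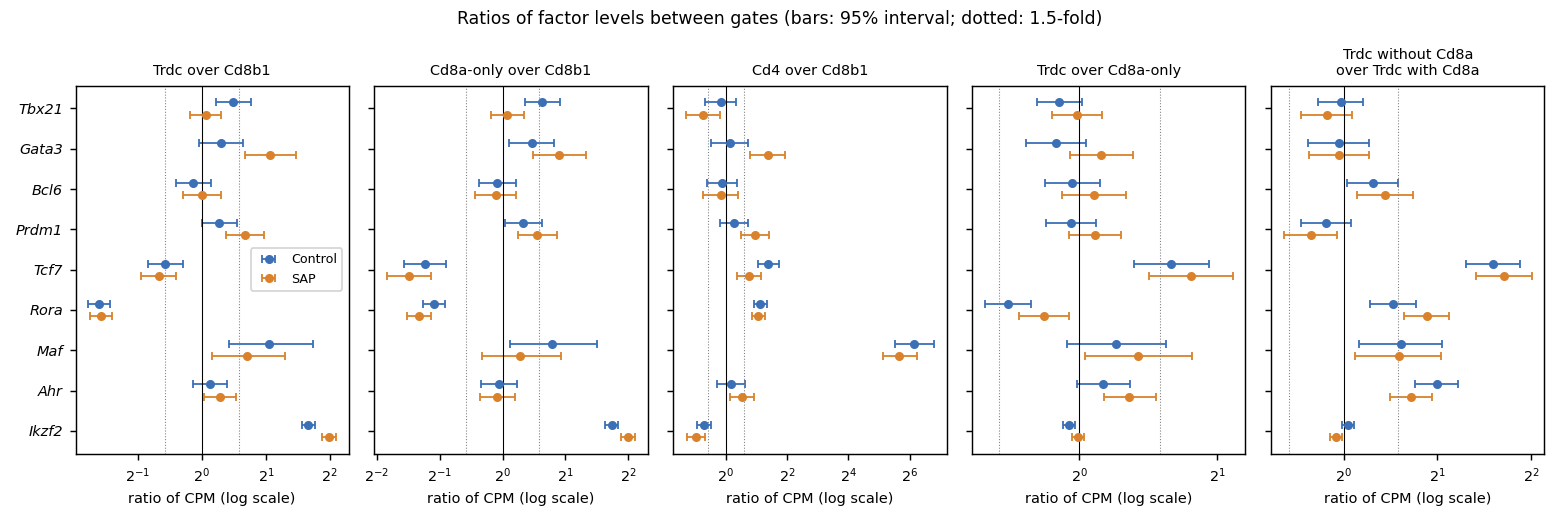
CPM ratio of the 9 members other than Eomes (horizontal axes, log scale, ranges differ) for 5 pairs of gates, Control in blue and SAP in orange, with 95% intervals and dotted lines at 1.5-fold. Ikzf2 lies right of the line in both contrasts with the Cd8b1 gate as base and a Trdc or Cd8a-only gate on top, Rora lies left of it in both, and Maf lies far right in Cd4 over Cd8b1.

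Other lineage factors were read from a list of 44 symbols, 43 of them in the gene list. A factor high in 1 gate can become eligible through that gate alone, so counts over eligible factors are descriptions and support nothing. Irf8, at 6.41 and 7.61 CPM in the Cd8b1 gate, was eligible in this way. In Trdc over Cd8b1, 2 of 29 eligible were higher and 3 lower, where 6.69% and 1.98% of all eligible genes were. Median log2 ratios of the 29 were -0.05 and -0.08 against 0.09 and 0.10 over all eligible genes. Irf8, an interferon regulatory factor, was higher at 6.67-fold and 5.77-fold and Nfil3, a factor of innate lymphocytes, at 1.90-fold and 1.75-fold. Klf2, which keeps cells circulating (0.416 and 0.572), Zeb2 (0.497 and 0.583) and Bcl11b, a keeper of T cell identity (0.459 and 0.441), were lower. The Cd8a-only gate repeated these 5 calls against the Cd8b1 gate, and Satb1 (0.355 and 0.554) and Stat5b (0.662 and 0.647) were lower as well. In Trdc over Cd8a-only none of 28 was called, where 0.259% of all eligible genes were higher and 0.314% lower.

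In Cd4 over Cd8b1, 9 of 31 other lineage factors were higher and none lower, where 5.22% and 3.28% of all eligible genes were. Medians of the 31 were 0.11 and 0.05 on the log2 scale against -0.04 and -0.01 over all eligible genes. By the smaller ratio the 9 were led by Lef1 (6.09-fold and 6.22-fold), Tox2 (7.43-fold and 5.13-fold) and Bhlhe40 (3.65-fold and 4.17-fold). Satb1 (3.10-fold and 2.96-fold), Runx1 (3.71-fold and 2.77-fold) and Batf (2.20-fold and 2.32-fold) came next. The rest were Irf4, Klf2 and Stat5a. In the Cd8b1 gate Lef1 (9.62 and 7.61 CPM), Tox2 (7.48 and 10.2 CPM) and Irf4 (18.7 and 10.7 CPM) were under 20 CPM. They were thus eligible through the Cd4 gate alone, and the other called factors were above 20 CPM in both gates. Foxp3, the factor of regulatory T cells, had 13 and 9 UMIs in the Cd4 gate, too few for a contrast. Among Ikaros family relatives of Ikzf2, Ikzf3 had the same order of gates at a smaller spread, from 254 and 255 CPM in the Cd8a-only gate through 238 and 255 (Trdc) and 194 and 227 (Cd8b1) to 176 and 139 CPM in the Cd4 gate. Ikzf1 was at 125 to 174 CPM, and none of 3 eligible relatives was called in any contrast run between gates.

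Genes known to act with each factor were read from lists. A listed gene that is high in 1 gate becomes eligible through that gate, so counts over eligible listed genes are descriptions and support nothing. The shares called over all eligible genes are those given above for each contrast. In Cd4 over Cd8b1, 4 of 10 listed type 17 genes were eligible and 3 were higher, all 3 below 20 CPM in the Cd8b1 gate. Il17a was at 348 and 411 CPM in the Cd4 gate against 8.02 and 1.52 CPM, Tmem176b at 32.2 and 79.0 against 0.534 and 0.508 CPM, and Il17f at 38.0 and 82.1 CPM against no UMI in the Cd8b1 gate, where 3 counts would be 1.60 and 1.52 CPM. Of 7 listed MAF-linked genes 4 were eligible and 3 were higher: Il10 (25.0-fold and 28.0-fold), the costimulator gene Icos (12.1-fold and 9.30-fold) and the inhibitory receptor gene Tigit (2.57-fold and 3.83-fold). Of 8 listed follicular helper genes 4 were eligible and called higher, Icos again, Slamf6 (11.8-fold and 12.4-fold), Sh2d1a (5.25-fold and 3.99-fold) and Cd40lg (138 and 120 CPM against 0 and 5.08 CPM), while Bcl6 itself had ratios of 0.919 and 0.896.

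Of 13 listed TCF1-linked genes 9 were eligible and 7 were higher in the same contrast, led by Slamf6, Lef1 and S1pr1, the exit receptor (9.58-fold and 4.75-fold). Of 11 eligible T-box-linked genes 5 were lower: the NK receptor gene Klrd1 (0.152 and 0.0543), the chemokine genes Ccl5 (0.194 and 0.197) and Ccl4 (0.304 and 0.170), and the killing genes Gzmb (0.379 and 0.405) and Prf1 (0.428 and 0.336). Il12rb2, an IL-12 receptor chain, was higher at 7.21-fold and 5.33-fold. Of the BLIMP1 and residency list, the epithelial retention integrin genes Itgae (0.297 and 0.284) and Itga1 (0.223 and 0.253) were lower and Klf2 and S1pr1 higher, of 7 eligible. Areg was higher in the type 2 list of 2 eligible genes (6.69-fold and 6.67-fold), and 0 of 2 eligible AHR-linked genes were called.

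In Trdc over Cd8b1, Klrd1 (4.57-fold and 5.12-fold) and the IL-15 receptor gene Il2rb (2.16-fold and 2.31-fold) were higher among 10 T-box-linked genes, and Ifng (0.481 and 0.358) and Cxcr3 (0.562 and 0.662) lower. Of 5 TCF1-linked genes Kit, the stem cell factor receptor gene (5.52-fold and 7.30-fold), was higher and Il7r (0.204 and 0.178) and Klf2 lower. Of 2 MAF-linked genes Lag3 was higher (3.61-fold and 3.70-fold) and Icos lower (0.130 and 0.159), and both eligible follicular genes, Icos and Sh2d1a, were lower. Of 7 residency genes Itga1 (1.60-fold and 1.69-fold) and Cd101 (1.63-fold and 2.15-fold) were higher and Klf2 lower. The Cd8a-only gate made these calls too, and Satb1 and the gut homing receptor gene Ccr9 (0.646 and 0.623) were lower there as well. In Trdc over Cd8a-only none of the linked genes was called.

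In Trdc cells without Cd8a, 4 of the 6 eligible of 13 listed TCF1-linked genes were higher than in those with Cd8a, beside Tcf7: Satb1 (3.56-fold and 5.17-fold), Id3 (3.18-fold and 2.69-fold), Il7r (2.51-fold and 2.89-fold) and Klf2 (1.66-fold and 2.37-fold). Stat5a (1.87-fold and 1.76-fold) and Stat5b (1.70-fold and 1.62-fold) were also higher, as were Il12rb2, Klrc1 and Il4ra, and Irf8 (0.384 and 0.447) and Lag3 (0.575 and 0.521) were lower.

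Co-expression was read within a gate at 1000 UMIs per cell, as the share of cells with a UMI of one member among cells with and without a UMI of another. Of 360 ordered pairs by gate, 216 had at least 30 cells with the first member in both libraries. In 1 unordered pair the intervals did not overlap, on the same side, in both libraries: Rora and Ikzf2 in the Cd8a-only gate. An Ikzf2 UMI was seen in 46.7% (56 of 120) of Rora-positive cells in Control and 45.7% (37 of 81) in SAP. Among cells without a Rora UMI it was 66.0% and 66.4%. In the Trdc gate the same shares were 72.4% and 66.4% with a Rora UMI and 64.1% and 64.8% without, on the other side. In the Cd8b1 gate they were 41.0% and 25.6% against 26.0% and 23.1%, apart in Control only. The T cell marker gene Cd5 was at 56.2 and 55.1 CPM in the Cd8a-only gate. It was at 199 and 182 CPM in the Cd8b1 gate and 3.69 and 6.39 CPM in the Trdc gate. Whether the Cd8a-only gate holds cells whose Cd8b1 transcript was missed, and their part in this pair, was not tested. A further 14 ordered pairs were apart in 1 library only. The same count was not made over pairs of other genes, so these counts are descriptions only.

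**Figure D4:**
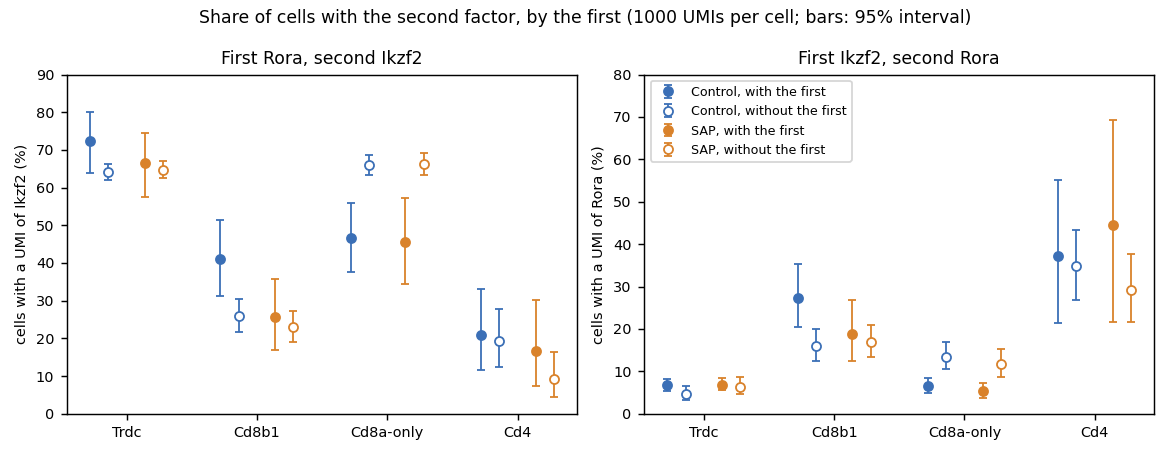
Percent of cells with an Ikzf2 UMI by whether a Rora UMI was seen (left), and the reverse (right), by gate at 1000 UMIs per cell, with filled points for cells with the first gene, open points without it and bars for 95% intervals. In the Cd8a-only gate filled points lie below open points in both libraries, 46.7% and 45.7% against 66.0% and 66.4% on the left.

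Between a member and its linked genes, 224 of 336 ordered pairs by gate had enough cells, and 4 were apart on the same side in both libraries, all in the Trdc gate. Gzmb, the granzyme B gene, was seen in 88.7% and 85.7% of Tbx21-positive cells and 80.4% and 77.3% of the others. Satb1 was seen in 18.3% and 11% of Tcf7-positive cells against 3.01% and 2.79%, and Kit in 25.8% and 20.5% against 9.63% and 8.41%. Xcl1, a chemokine gene for dendritic cells, was seen in 2.23% and 2.42% of Prdm1-positive cells against 8.41% and 10.2%. A further 9 pairs were apart in 1 library only. The Trdc gate held the most cells. No such count was made over other genes, so these counts are descriptions only. The Xcl1 shares of Prdm1-positive cells rest on few cells. Cells without a UMI at this depth can still carry the transcript, so both groups mix.

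Most cells showed few members at this depth. The mean number of members with a UMI was 1.13 and 1.15 in the Trdc gate, 1.15 and 1.11 in the Cd8a-only gate, 0.906 and 0.776 in the Cd8b1 gate and 1.54 and 1.36 in the Cd4 gate. No member was seen in 15.9% and 23.2% of Cd4 gate cells and in 37.9% and 43.7% of Cd8b1 gate cells.

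Cells of the Cd8b1 gate with an Ikzf2 UMI after thinning (150 in Control, 122 in SAP) were set against those without (370 and 397). This split was added after the levels were seen. Its levels and ratios are from the thinned counts. Cells without an Ikzf2 UMI after thinning can still carry the transcript. Of 2806 eligible genes 0.535% were called higher and 0.249% lower. None of 6 eligible members was called. Rora had ratios of 2.01 (1.41 to 2.85) in Control and 0.910 (0.565 to 1.42) in SAP. The listed genes Il2rb (2.20-fold and 2.06-fold), Stat3 (2.0-fold and 1.54-fold) and Foxo1 (2.11-fold and 1.55-fold) were higher and Il7r (0.266 and 0.377) lower. Of the receptor chain genes, Trgc1 was at 66.7 and 49.2 CPM with Ikzf2 and 35.1 and 27.7 CPM without. Trgc2 was at 100 and 189 CPM against 154 and 164 CPM, and Trac at 740 and 500 against 546 and 640 CPM, each in opposite directions in the 2 libraries. Fcer1g stood at 180 and 172 against 59.5 and 50.4 CPM. These levels are given without intervals, and those of Trgc1 and Fcer1g rest on few UMIs.

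SAP and Control were close for the members over the 4 gates together. None of 9 eligible members was called at 1.5-fold with an interval excluding 1, where 0.164% of 5491 genes were called higher and 0.0546% lower (9 and 3 genes, which became 6 and 4 with either TMM or median-of-ratios scaling). The most distant were Bcl6, at a SAP over Control ratio of 0.817 (0.746 to 0.896), and Ahr, at 1.18 (1.09 to 1.28). The ratio of Bcl6 was under 1 in each gate, at 0.859, 0.784, 0.770 and 0.764 in the Trdc, Cd8b1, Cd8a-only and Cd4 gates, with an interval excluding 1 in the Trdc and Cd8a-only gates. That of Ahr was over 1 in each gate, at 1.23, 1.10, 1.08 and 1.41, excluding 1 in the Trdc gate.

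Gate by gate, none of 9 members was called in the Trdc gate, where 0.431% of genes were higher and 0.0719% lower (24 and 4 genes, against 10 and 14 with TMM and 13 and 10 with median-of-ratios scaling). None of 8 was called in the Cd8b1 gate, where 3.52% and 1.79% of genes were (189 and 96, against 129 and 131, and 159 and 111). None of 9 was called in the Cd8a-only gate, where 0.887% and 0.266% were (50 and 15, against 25 and 24, and 20 and 30). Ikzf2 in the Cd8b1 gate had a ratio of 0.807 (0.728 to 0.894) and Gata3 there 0.671 (0.474 to 0.944), just inside the limit, which it passed with either other scaling and with the Folr1 barcodes kept.

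In the Cd4 gate 4.43% of 3274 genes were called higher and 2.14% lower (145 and 70 genes, against 105 and 101 with TMM and 79 and 134 with median-of-ratios scaling). With so few cells, counting error alone can put genes of low count past the 1.5-fold limit. Gata3 was higher at 1.59-fold (1.01 to 2.53), from 34 UMIs in Control and 50 in SAP. Tcf7 was lower at 0.666 (0.504 to 0.876), from 141 and 87 UMIs, while its share of cells at equal depth was 13.1% and 12.9%. Ikzf2, at 0.669 (0.525 to 0.849), lay just inside the limit. Ikzf2 was called lower, and the Gata3 call was lost, with either other scaling. The Gata3 call was also lost with gates of 2 UMIs, and the Tcf7 call with doublets kept and with the Folr1 barcodes kept. Summed proliferation markers were 685 CPM in Control and 486 CPM in SAP in this gate, and their part in these ratios was not tested.

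Listed genes that differed in the Cd4 gate were Tox (0.487) and Klf2 (0.529), lower, and Zeb2 (1.52-fold), higher, of 28 other lineage factors. Of 5 eligible type 17 genes 3 were higher: Tmem176a (3.82-fold), Tmem176b (2.45-fold) and Il17f (2.16-fold). Il10 was lower (0.607) and Lag3 higher (1.98-fold) of 3 MAF-linked genes. Xcl1 (1.76-fold) was higher and Ccl4 (0.455) lower of 7 T-box-linked genes, and Tiparp (0.656), an AHR target, and Sh2d1a (0.654) were lower. In the other gates 1 listed gene was called, Sox4 in the Trdc gate (3.56-fold).

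**Figure D5:**
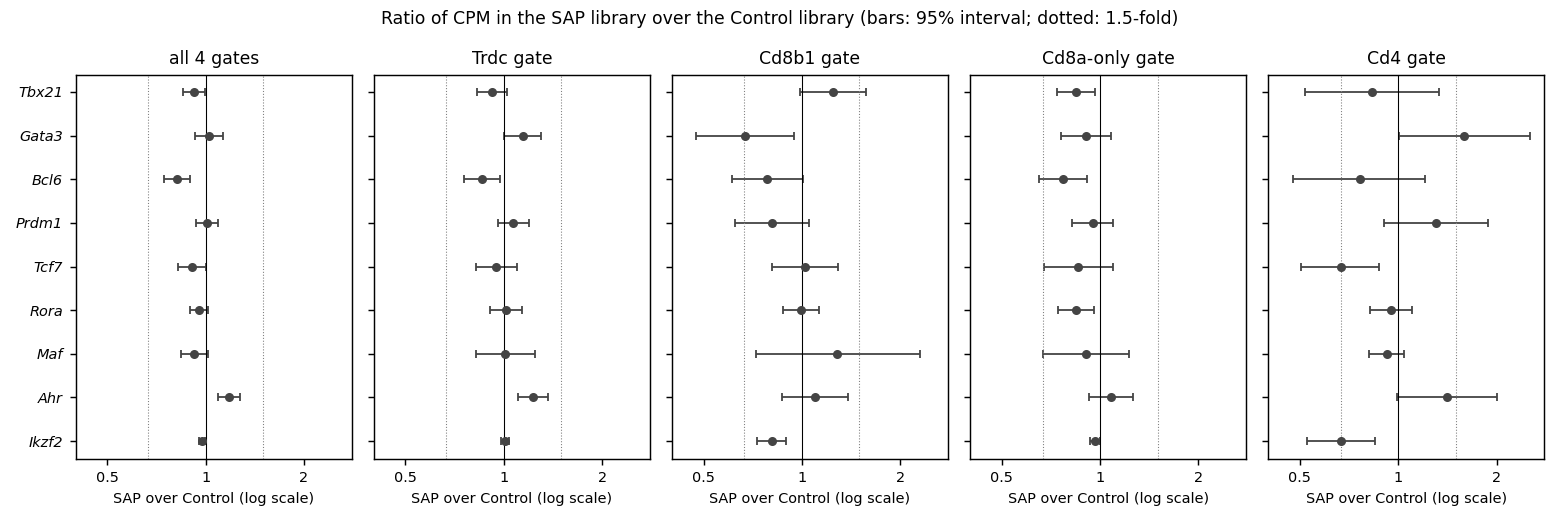
CPM ratio of SAP over Control (horizontal axis, log scale) for the 9 members other than Eomes, in all 4 gates together and in each, with 95% counting intervals and dotted lines at 1.5-fold. Points lie between the dotted lines except Gata3 (1.59) and Tcf7 (0.666) in the Cd4 gate.

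Genes with the most similar profile to each member were found over 10 points (5 populations in 2 libraries, with the Trdc gate split by Cd8a) among 5519 genes, by Pearson r of log2(CPM + 1). The points share libraries and depth, so r is a description. For Rora the nearest were Itgal (0.997), Ly6a (0.992) and Cd28 (0.990), for Ikzf2 Lyn (0.994), Fam102b (0.992) and Irs2 (0.991), for Maf Furin (0.991), Tbc1d4 (0.988) and Nfkbiz (0.983), and for Tcf7 Satb1 (0.974), Ltb (0.974) and Ccr7 (0.973). For Tbx21 they were Isca1 (0.971) and Pik3cd (0.957), for Gata3 Tab2 (0.921), Laptm4a (0.912) and Prdm1 (0.905), and for Prdm1 Gata3 (0.905), Azi2 (0.894) and Fes (0.893). For Bcl6 they were Sertad3 (0.940), Dnajb6 (0.897) and Mrps28 (0.851), and for Ahr Chd2 (0.940), Lrrc58 (0.930) and Emb (0.923). For Eomes they were Slamf7 (0.899), Serpinb6a (0.878) and Psip1 (0.872), but Eomes stayed under 20 CPM at all 10 points. Its profile rests on few UMIs. Among members, the profile of Ikzf2 ran against that of Rora (r = -0.952) and with that of Tbx21 (r = 0.878), and Rora ran with Tcf7 (r = 0.805).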

How the data were processed

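The deposited values were raw UMI counts per gene and barcode in 2 filtered matrices, made by the authors with Cell Ranger 7.1.0 per the file headers. The submitters' processing notes also name Seurat and mm10. Whether intronic reads were counted is not stated there or in the labels.

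Barcodes with at least 500 UMIs, 300 genes and at most 10% mitochondrial UMIs were kept. Scrublet (scanpy 1.11.5) was run at an expected 0.8% doublets per 1000 barcodes. Left to choose its own cutoff it called 1 doublet in Control and 0 in SAP, so it had not worked, and the 257 Control and 202 SAP barcodes with the highest scores were removed instead. Barcodes with 3 or more Folr1 UMIs or over 1% immunoglobulin UMIs were then left out, a rule chosen after seeing the data. All per-sample columns were used.

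Counts were summed per gate and library and given as CPM of that sum, with exact Poisson intervals. Ratios had exact conditional binomial intervals and shares Clopper-Pearson intervals, all at 95%. UMIs of single cells are not independent samples of animals, so these cover counting error only. For shares, and for the Ikzf2 split of the Cd8b1 gate, cells were thinned without replacement to 1000 UMIs (seed 1). Contrasts took genes with 20 CPM and 50 UMIs. TMM and median-of-ratios factors were checked against edgeR 4.0.16 and DESeq2 1.42.0, used for nothing else, and the scripts were tested on simulated data.

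All 10 members are named in every gate. From the lists, called genes are named, up to 6 per direction by the smaller ratio, and for each member the 3 nearest profiles, apart from a few genes that are not reported here. The members and lists were chosen with earlier results of these data known. The planned background population, cells without receptor UMIs, was too small, so the Folr1 barcodes were used. That choice, the split of the Trdc gate as a contrast and the Ikzf2 split of the Cd8b1 gate were added after the levels were seen. Alternatives covered gates, scaling, filters, depth, seed and barcodes left out.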

Additional observations from a re-analysis of the deposited data

Results flagged for a closer look

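Eomes had a SAP over Control ratio of 3.32 (1.01 to 14.1) in the Cd8a-only gate, from 4 and 12 UMIs, and of 0.320 (0.104 to 0.832) in the Trdc gate, from 19 and 6 UMIs. The 2 gates moved in opposite directions with intervals that excluded 1. The difference between the gates was not tested, and Eomes lay under 20 CPM in each gate. In the Trdc gate 6 of the 19 Control UMIs came from 1 cell, which the interval does not take into account. At equal depth the share of Cd8a-only cells with an Eomes UMI was 0.225% (3 cells) in Control and 0.186% (2 cells) in SAP, not higher in SAP.

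Gata3 had a SAP over Control ratio of 1.59 (1.01 to 2.53) in the Cd4 gate and of 0.671 (0.474 to 0.944) in the Cd8b1 gate, again on opposite sides of 1. The difference between the gates was not tested. In the Trdc and Cd8a-only gates the Gata3 ratios were 1.14 and 0.907, with intervals that included 1.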

How the results depend on the processing

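No paired analysis was possible because each group has 1 library and the labels give no replicate numbers. No result changed direction among those with a call. The Ikzf2 and Rora calls against the Cd8b1 gate in Trdc and Cd8a-only, and the Maf and Rora calls in Cd4 over Cd8b1, held under every alternative run for them. With gates of 2 UMIs or more, Trdc over Cd8b1 had 1 member higher and 2 lower, Cd4 over Cd8b1 had 176 genes higher and 0 members lower, and Trdc over Cd8a-only had 26 genes lower. SAP over Control then had 5 genes lower in all gates, 10 lower in the Trdc gate, 1 member (Tbx21) higher in the Cd8b1 gate and 82 genes higher in the Cd4 gate. With doublets kept, 0 members were lower in the Cd4 gate. With a minimum of 5 CPM, genes higher and lower were 551 and 187 (2 members lower) in Trdc over Cd8b1, 41 and 45 in Trdc over Cd8a-only, 128 and 30 for SAP over Control in all gates, 242 and 56 in the Trdc gate and 217 and 78 in the Cd8a-only gate. Under the same minimum 166 genes were lower in Cd8a-only over Cd8b1 and 100 higher in Trdc without over with Cd8a. More genes were tested at that minimum. With TMM scaling, SAP over Control counts were 10 and 14 (Trdc) and 25 and 24 (Cd8a-only), with 1 member lower in the Cd8b1 gate and 0 higher and 2 lower in the Cd4 gate. Median-of-ratios scaling gave 13 and 10, 20 and 30, and 79 and 134 genes in the Trdc, Cd8a-only and Cd4 gates, the same member counts, and 2 members lower in Trdc over Cd8b1. With the Folr1 and immunoglobulin barcodes kept, SAP over Control had 164 genes higher and 6 lower in all gates, 134 and 8 in the Trdc gate, 306 higher in the Cd8a-only gate, 1 member lower in the Cd8b1 gate and 0 in the Cd4 gate. Trdc over Cd8b1 then had 2 members lower, Trdc over Cd8a-only 130 genes lower and the Trdc split 193 higher. The cause of these moves was not tested. At 2000 UMIs per cell, 15 of 80 shares stayed within their intervals, since deeper cells show more members. The Rora and Ikzf2 difference in the Cd8a-only gate kept its sign at 2000 UMIs and with another seed. Low counts limit Eomes in every gate, and the number of cells, 184 and 167, limits SAP over Control ratios in the Cd4 gate.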
